A study of Mus musculus with 4 samples.

Results

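Aldo-keto reductases are enzymes of the cytosol that use NADPH or NADH to turn aldehydes and ketones into alcohols. Their substrates include sugars, steroids, prostaglandins, lipid peroxidation products and drugs, and liver holds many of them. The Akr1b genes include the aldose reductase, which makes sorbitol from glucose, and the Akr1c genes include hydroxysteroid dehydrogenases, which interconvert hydroxy- and ketosteroids. In mouse liver, Akr1b7 is a known target of CAR and PXR, the nuclear receptors that sense foreign compounds and bile acids.

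The 10 genes described here are Akr1a1, Akr1b3, Akr1b7, Akr1b8, Akr1c6, Akr1c13, Akr1c14, Akr1c19, Akr1c20 and Akr7a5. They were taken as the array probes whose transcript accession belongs to one of these genes, a rule that sets no threshold on a measured value. A probe was found for 9 of the 10, by 10 probes of 39429 in all, and Akr1c20 matched none and was not analysed here. All 9 were well above background in all 4 livers and are among 17406 genes or other features tested. Total RNA came from liver of wild type mice and of mice lacking the cluster of Cyp3a drug-metabolising P450 genes (Cyp3a-/-), with 2 livers per genotype and 1 array (1 colour, Cy3) per liver. The submitters describe independent experiments on different animals, and no treatment is given. Strain, sex, age and feeding are not given in the sources used here.

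Levels are processed intensities on the log2 scale, set so that 0 is the 75th percentile of the probes of that array. Differences are log2 fold changes, Cyp3a-/- minus wild type, with the SE of a limma fit over all features and p-values adjusted over all of them by Benjamini-Hochberg at a threshold of 0.05. Cyp3a11, the main Cyp3a gene of mouse liver, stood at 7.94 and 8.09 in wild type and did not rise clearly above background in Cyp3a-/- livers, at least 7204-fold lower. On each array 54.4% to 56.4% of probes were well above background and no spot was saturated. Both wild type arrays shared 1 slide and each Cyp3a-/- array had a slide of its own, so a slide effect and the genotype cannot be told apart, whereas all were scanned on the same day. All 6 hepatocyte markers were well above background in every liver, with a summed level (in multiples of the 75th percentile) of 2265 and 1966 in wild type and 2202 and 2299 in Cyp3a-/-. In RNA of whole liver, fewer cells of a type and less RNA per cell cannot be told apart.

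The promoter stretches of the Akr1b genes that lie side by side on chromosome 6 are shown first, because Akr1b7 passed the test between the genotypes and these neighbours did not. Each sequence runs 5′ to 3′ on the gene's strand, from 250 bases before the RefSeq transcript start to 50 after it (RefSeq, GRCm38.p6). Capitals mark AGGTCA or AGTTCA, half-sites that nuclear receptors such as CAR and PXR can bind, and TATAAA, the core of a TATA box, searched on both strands. The stretches are Akr1b7 at chr6:34412112-34412411 (plus strand), Akr1b8 at chr6:34353896-34354195 (plus strand) and Akr1b10 at chr6:34383997-34384296 (plus strand).
Akr1b7: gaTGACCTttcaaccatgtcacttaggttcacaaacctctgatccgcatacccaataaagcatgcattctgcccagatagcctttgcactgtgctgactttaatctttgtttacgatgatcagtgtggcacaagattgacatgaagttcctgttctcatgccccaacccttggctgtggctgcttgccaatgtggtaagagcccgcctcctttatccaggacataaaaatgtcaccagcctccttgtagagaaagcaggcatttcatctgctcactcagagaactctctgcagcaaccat
Akr1b8: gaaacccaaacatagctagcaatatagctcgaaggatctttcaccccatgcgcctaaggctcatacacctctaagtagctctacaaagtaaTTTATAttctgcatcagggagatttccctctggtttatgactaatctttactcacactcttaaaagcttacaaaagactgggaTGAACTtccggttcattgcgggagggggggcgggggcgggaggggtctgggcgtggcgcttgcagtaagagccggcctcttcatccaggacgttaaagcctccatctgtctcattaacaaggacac
Akr1b10: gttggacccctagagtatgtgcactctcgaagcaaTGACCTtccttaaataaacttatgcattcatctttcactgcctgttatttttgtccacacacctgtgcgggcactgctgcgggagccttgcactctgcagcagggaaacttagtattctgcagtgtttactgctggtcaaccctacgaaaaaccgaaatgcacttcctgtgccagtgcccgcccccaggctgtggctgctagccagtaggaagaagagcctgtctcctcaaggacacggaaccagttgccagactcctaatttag
The Akr1b7 stretch holds AGGTCA once (1 match), on the minus strand, with its first base 248 bases before the start. AGGTCA also occurs in Akr1b10, on the minus strand 215 bases before the start, and AGTTCA in Akr1b8, on the minus strand 76 bases before the start. Of 32851 mouse promoter stretches of this length, 16.3% hold AGGTCA and 14.0% hold AGTTCA, so neither is rare. TATAAA was found in Akr1b8 alone of the 3, on the minus strand 159 bases before the start, and in 13.6% of all stretches. Akr1b7 also holds CCAAT, the core of the CCAAT box, on the plus strand 199 and 64 bases before the start, as do 37.4% of all stretches at least once. Half-sites repeated in the same direction 4 bases apart, and TGACNNNGC, the core of the element bound by NRF2, were in none of the 3 (0.0274% and 12.4% of all stretches). Other spacings and orientations of paired half-sites, inexact matches and bases outside the stretches were not searched. No motif searched overlapped another in these 3 stretches. In global alignment the Akr1b7 stretch was 48.7% identical to that of Akr1b8 and 45.8% to that of Akr1b10. Its identity with the stretches of the other reductases aligned ran from 43.6% to 49.4%, so Akr1b8 and Akr1b10 were no closer to it by this measure. Akr1b3 had no promoter stretch and was not compared.

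Akr1b7 was the member that rose. It encodes the mouse vas deferens protein, an aldose reductase-like enzyme that also reduces lipid aldehydes and the side-chain aldehyde released in adrenal steroid synthesis. Its probe read a processed intensity of 27.5 and 33.0 in the wild type livers and 387 and 204 in the Cyp3a-/- livers. Both Cyp3a-/- livers lay far above both wild type livers, and the lower of them was still 2.82 log2 units above the higher wild type liver. The level went from -3.46 ± 0.06 to -0.15 ± 0.63 (SD, n = 2 per genotype), a rise of 3.31 ± 0.32 (SE), or 9.93-fold (95% interval 5.71 to 17.3), with a limma adjusted p of 0.034. The Cyp3a-/- livers were not alike in size: liver 1 was 13.6-fold and liver 2 was 7.28-fold above the wild type mean. They differed by 0.90 log2 units, against 0.09 between the wild type livers. The Cyp3a-/- arrays were on different slides and the wild type arrays shared one. These differences therefore cannot be compared as differences between livers alone.

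The wild type signal was low but measured. Median spot brightness was 88 and 97 in wild type over a local background of 20 and 24, against 427 and 254 over 23 and 25 in Cyp3a-/-, and the probe was well above background on every array. The reductase probes that were above background on no array (Akr1cl, Kcnab1, Kcnab2 and Kcnab3) had a median spot brightness of 52.5 to 70.5, so the wild type readings of Akr1b7 lay not far above those of undetected probes. The gene ranked 27th of all features by the size of its log2 fold change and 39th by p, and 0.149% of features had a larger change in either direction. The call depended on the processing, though some settings could hardly change it. Akr1b7 has 1 probe, so averaging a gene's probes and testing each probe reused its values. Keeping outlier spots and using the deposited table also left the log2 fold change at 3.31. With median scaling the estimated prior degrees of freedom were infinite. The 16 settings counted next are therefore not separate challenges. The adjusted p passed the threshold in 9 of 16 alternative settings and missed it in 7, at 0.055 to 0.437, while the log2 fold change stayed between 1.86 and 3.76 and above 0 in all 16. The lowest value came from normexp background correction with an offset (1.86, adjusted p = 0.073), and the call was lost without wild type 1 (3.27, adjusted p = 0.290) or without wild type 2 (3.36, adjusted p = 0.437).

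**Figure D1:**
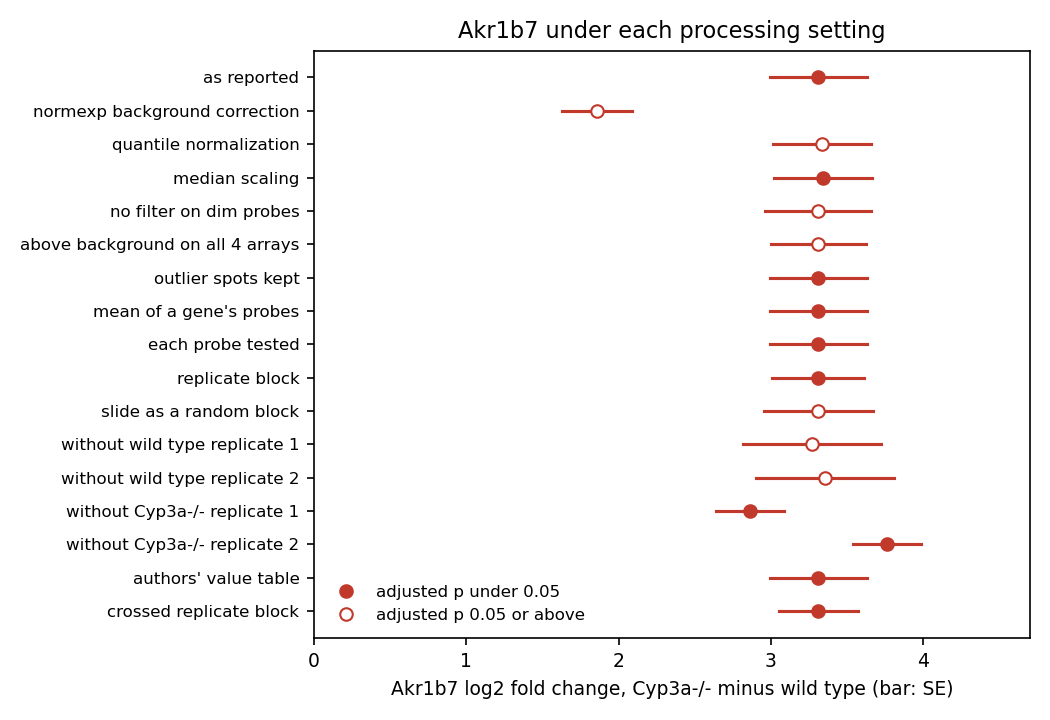
Log2 fold change of Akr1b7 (x axis, Cyp3a-/- minus wild type, bar: SE) as reported and under the 16 alternative settings (rows), filled where the adjusted p is under 0.05 and open otherwise. All values lie between 1.86 and 3.76, and 9 of the 16 alternatives are filled.

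Adrenal cortex is a tissue in which mouse Akr1b7 is known, and no marker of vas deferens was examined. Of the adrenal cortex markers only Cyp21a1 and Nr5a1 were bright enough to be tested, and neither passed. Of 6 adrenal cortex markers, Cyp11a1, Cyp11b1 and Mc2r were well above background on no array and Star on 1, while Cyp21a1 and Nr5a1 were so on all 4. Their summed level was 1.71 and 1.45 in wild type and 1.43 and 1.76 in Cyp3a-/-, so the genotypes overlapped. The summed kidney tubule markers (2 of 4 above background on no array, among them Umod) were 0.280 and 0.331 in wild type against 0.416 and 0.250 in Cyp3a-/-. Cholangiocyte markers, with Epcam above background on no array, summed to 0.864 and 1.48 against 1.18 and 1.02. None of the kidney tubule and cholangiocyte markers tested passed either.

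None of the other Akr1 genes on chromosome 6 passed the test, and whether their changes differ from that of Akr1b7 was not tested. The Akr1 genes there run in the order Akr1b3, Akr1b8, Akr1b10, Akr1b7 and Akr1d1. This order counts Akr1 genes alone, and the distances and genes between them were not examined. Akr1b3, the mouse aldose reductase and first enzyme of the polyol pathway, had a processed intensity of 680.0 and 582 in wild type and 826 and 921 in Cyp3a-/-. Both Cyp3a-/- livers were higher than both wild type livers, by 0.56 ± 0.22 in the mean log2 level (1.48-fold, 95% interval of the fold 1.02 to 2.15), with an unadjusted p of 0.043 and a limma adjusted p of 0.485. A dimmer second Akr1b3 probe gave 71.1 and 71.6 in wild type and 123 and 95.3 in Cyp3a-/-. Its log2 fold change was 0.69 ± 0.21 (adjusted p = 0.370 in the fit of each probe), so the 2 probes had the same direction and neither passed.

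Akr1b8, an inducible relative of aldose reductase that reduces reactive aldehydes, gave 378 and 371 in wild type and 389.5 and 299.9 in Cyp3a-/-. The wild type livers lay between the Cyp3a-/- livers, and the log2 fold change was -0.04 ± 0.21 (95% interval -0.56 to 0.48, adjusted p = 0.963). That interval leaves out a change of the size of Akr1b7's. The Akr1b8 probe is printed in 10 spots on each array, and the spots of an array had an SD of 0.06 to 0.07 log2 units. That SD covers noise within an array alone, since its spots share labelling, hybridisation and scaling. In scaled level the Cyp3a-/- livers differed by 0.35 log2 units and the wild type livers by 0.20, a comparison that the slides also limit. Small intestine is rich in Akr1b8. Its markers Cdx1 and Lct were above background on no array, Vil1 on 1 and Fabp2 on all 4. The summed level was 35.7 and 39.7 in wild type and 36.7 and 39.2 in Cyp3a-/-. That sum is almost all Fabp2, whose log2 level was 5.16 and 5.31 in wild type and 5.19 and 5.29 in Cyp3a-/-. The sum therefore reads 1 gene.

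Akr1b10, which lies between Akr1b8 and Akr1b7 and is not a member, was nearly level on both of its probes. The brighter probe gave 160.0 and 169 in wild type and 164 and 159 in Cyp3a-/-, a log2 fold change of 0.07 ± 0.17 (adjusted p = 0.915). The other gave 124 and 138 against 112 and 114, a log2 fold change of -0.12 ± 0.17 (adjusted p = 0.853 in the fit of each probe). The probes thus had opposite directions, and neither passed. Akr1b family sequences are related, and probe sequences were not used here, so cross-hybridisation between them was not tested.

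**Figure D2:**
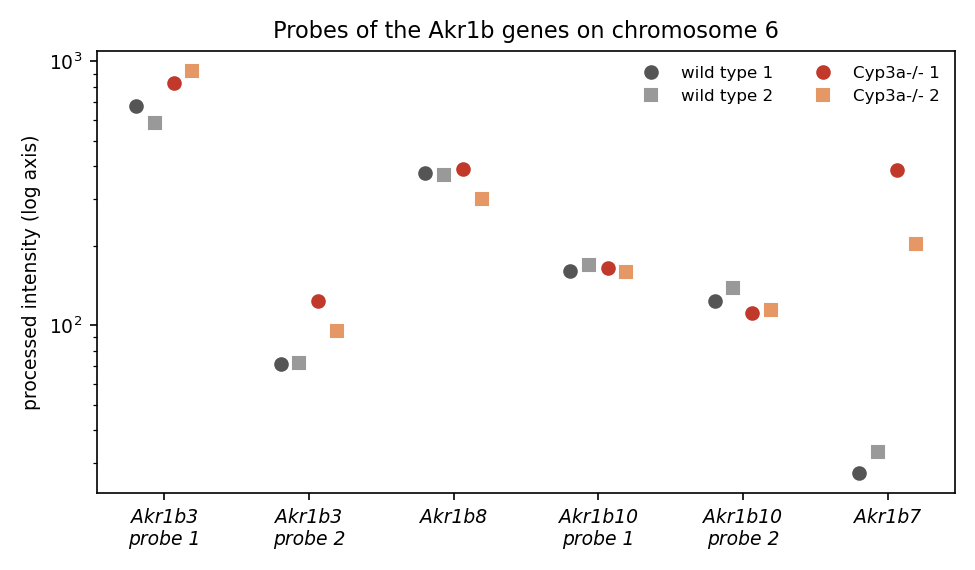
Processed intensity (log axis) of each Akr1b probe in the 2 wild type and 2 Cyp3a-/- livers, 1 point per liver, with genes in chromosome order. Akr1b7 goes from 27.5 and 33.0 to 387 and 204, while the points of Akr1b8 and of the first Akr1b10 probe overlap between genotypes; heights of different probes are not comparable.

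The last Akr1 gene in that order, Akr1d1, encodes the steroid 5-beta-reductase of bile acid synthesis and is not a member. Its intensity was 225.5 and 191 in wild type and 711 and 606 in Cyp3a-/-, with no overlap. The log2 fold change was 1.75 ± 0.22 (3.37-fold, 95% interval of the log2 value 1.20 to 2.30), and the adjusted p was 0.081, short of the threshold.

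The Akr1c genes lie together on chromosome 13, in the order Akr1c14, Akr1c18, Akr1c13, Akr1c19, Akr1c12, Akr1c6, Akr1c20 and Akr1c21, followed by Akr1e1. None of the 4 measured members among them passed the test. Akr1c14, the mouse 3-alpha-hydroxysteroid dehydrogenase, had the largest difference of these, with intensities of 2632 and 3640 in wild type and 5646 and 4209 in Cyp3a-/-. The genotypes did not overlap and the log2 fold change was 0.75 ± 0.23 (1.68-fold, 95% interval of the log2 value 0.18 to 1.31; unadjusted p = 0.018, adjusted p = 0.380). It stayed between 0.55 and 0.95 in all 16 alternative settings and passed in none (0).

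Akr1c6, a 17-beta-hydroxysteroid dehydrogenase of mouse liver that acts on estradiol and testosterone, had a bright probe. Its intensity was 112752 and 125661 in wild type and 142433 and 149638 in Cyp3a-/-, with no spot flagged as saturated. Both Cyp3a-/- livers were above both wild type livers, yet the difference was small, at 0.39 ± 0.17 (1.31-fold, 95% interval of the log2 value -0.04 to 0.82, adjusted p = 0.548). Akr1c19 read 4397 and 7624 in wild type and 7868 and 6254 in Cyp3a-/-. Here the wild type livers themselves differed by 0.62 log2 units and the genotypes overlapped, so the log2 fold change of 0.37 ± 0.27 (95% interval -0.30 to 1.04, adjusted p = 0.681) is within the spread of the livers.

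Akr1c13 and Akr1c12, which can oxidise hydroxysteroids and other alcohols, are close copies. Their promoter stretches are shown as the closest pair of those aligned, in RefSeq's GRCm38.p6. They are Akr1c13 at chr13:4190937-4191236 (plus strand) and Akr1c12 at chr13:4279350-4279649 (minus strand). Aligned were the stretches of the measured members except Akr1b3, and those of Akr1b10, Akr1c12, Akr1d1 and Akr1e1. Capitals mark the bases at which the 2 differ in the alignment.
Akr1c13: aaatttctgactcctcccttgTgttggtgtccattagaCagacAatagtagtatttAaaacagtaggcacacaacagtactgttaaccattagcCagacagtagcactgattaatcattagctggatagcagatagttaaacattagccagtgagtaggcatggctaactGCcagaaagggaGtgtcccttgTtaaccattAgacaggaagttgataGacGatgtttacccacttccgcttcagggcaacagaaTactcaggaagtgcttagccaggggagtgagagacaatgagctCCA
Akr1c12: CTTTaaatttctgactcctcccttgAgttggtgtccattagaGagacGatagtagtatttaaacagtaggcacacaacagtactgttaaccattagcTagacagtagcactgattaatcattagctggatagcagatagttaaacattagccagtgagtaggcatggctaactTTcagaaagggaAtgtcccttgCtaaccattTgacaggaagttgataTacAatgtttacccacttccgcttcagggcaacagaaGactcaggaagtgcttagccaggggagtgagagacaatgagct
The stretches were 93.4% identical, with 12 substituted bases and 8 gap positions. The next closest pair of those aligned was Akr1c13 and Akr1c19, at 58.8%. Akr1c13 read 12992 and 17150 in wild type and 15111 and 14364 in Cyp3a-/-, a log2 fold change of 0.07 ± 0.18 (95% interval -0.39 to 0.53, adjusted p = 0.911), with the Cyp3a-/- livers between the wild type livers. Akr1c12, which is not a member, read 2329 and 2921 in wild type and 5222 and 2519 in Cyp3a-/-. Its first Cyp3a-/- liver was 2.12-fold above the wild type mean and its second 1.04-fold, and the log2 fold change of 0.57 ± 0.35 did not pass (adjusted p = 0.637). Closeness was measured on these promoter stretches alone, and transcript and probe sequences were not compared. Whether a probe reads both genes was not tested, so each value is uncertain as that of 1 gene.

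Akr1a1, the aldehyde reductase that makes gulonate from glucuronate on the mouse's route to vitamin C, read 16094 and 21160 in wild type and 17148 and 17038 in Cyp3a-/-. The Cyp3a-/- livers lay between the wild type livers, and the log2 fold change was -0.02 ± 0.18 (95% interval -0.47 to 0.44, adjusted p = 0.983). In fold terms that interval runs from 0.720 to 1.36. Akr7a5, which reduces succinic semialdehyde and the dialdehyde of aflatoxin, read 3934 and 3970 in wild type and 4109 and 4183 in Cyp3a-/-. The scaled levels did not overlap but differed little, by 0.16 ± 0.18 (95% interval -0.28 to 0.61, adjusted p = 0.785).

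Of the 9 measured members, 1 was called higher, 0 lower and 8 did not pass. Over all features 48 were called (0.276%), 31 of them higher (0.178%). At an unadjusted p under 0.05 there were 3 members, Akr1b7, Akr1b3 and Akr1c14, all higher, against 4.60% of all features called higher at that level. The genotypes did not overlap for 5 members (Akr1b3, Akr1b7, Akr1c6, Akr1c14 and Akr7a5), all higher in Cyp3a-/-, and for 0 members lower. Among all features 22.5% were separated and higher and 20.2% were separated and lower. The members' median log2 fold change was 0.37, with 7 above 0 and 2 below 0. All features had a median of 0.01, 51.4% were above 0, and their median absolute change was 0.20. The 9 members are few, several are adjacent copies, and no test of the group was made.

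**Figure D3:**
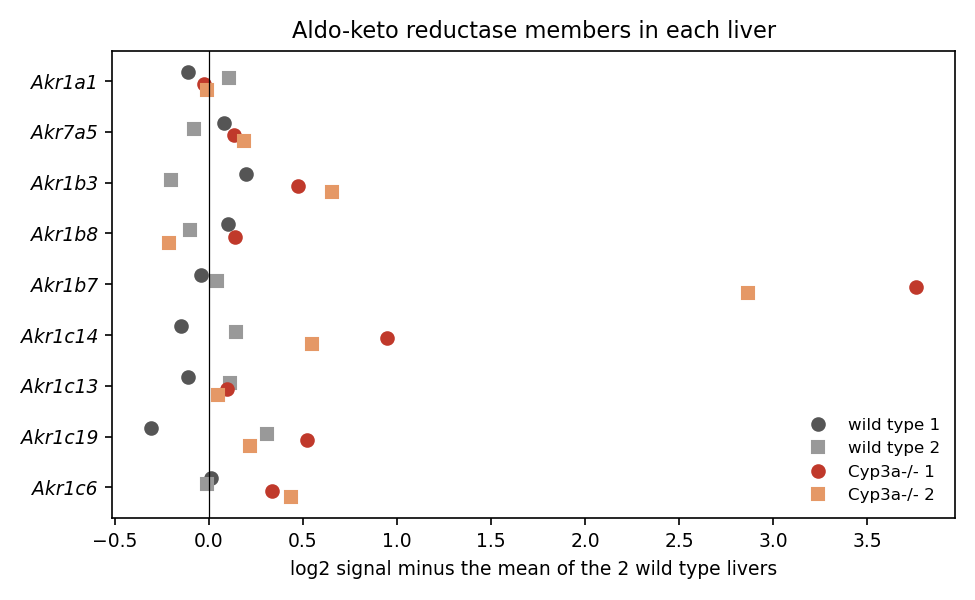
Log2 level of each measured member in each of the 4 livers (1 point per liver), minus the mean of the 2 wild type livers; the x axis is in log2 units and 0 is the wild type mean. Akr1b7 is far to the right in both Cyp3a-/- livers, and the other members lie within about 1 log2 unit of 0.

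The array also held 10 other aldo-keto reductase genes, of which 6 were tested. Akr1cl and the potassium channel beta subunits Kcnab1, Kcnab2 and Kcnab3 were well above background on no array. None of the 6 passed the test, and Akr1d1 and Akr1c21 had the largest differences. Akr1c21, a 17-alpha-hydroxysteroid dehydrogenase, stood at -3.41 and -3.52 in wild type and -3.61 and -4.68 in Cyp3a-/-, with the last not well above background (-0.68 ± 0.37, adjusted p = 0.594). Akr1c18, the 20-alpha-hydroxysteroid dehydrogenase that inactivates progesterone, was dim and overlapped (-0.09, adjusted p = 0.922). Akr1e1, which reduces 1,5-anhydrofructose, stood at 2.46 and 2.35 against 2.55 and 2.77 (0.25 ± 0.19, adjusted p = 0.681). With these included, 15 reductases had 1 call and a median of 0.25. Of the 15, 8 were separated and higher, 1 was separated and lower and 6 overlapped. The shares of all features separated were 22.5% higher and 20.2% lower. Akr1b10 is among the 8 by a gap of 0.0065 log2 units in scaled level, though its intensities overlapped. Its other probe was lower in both Cyp3a-/- livers than in both wild type livers.

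**Figure D4:**
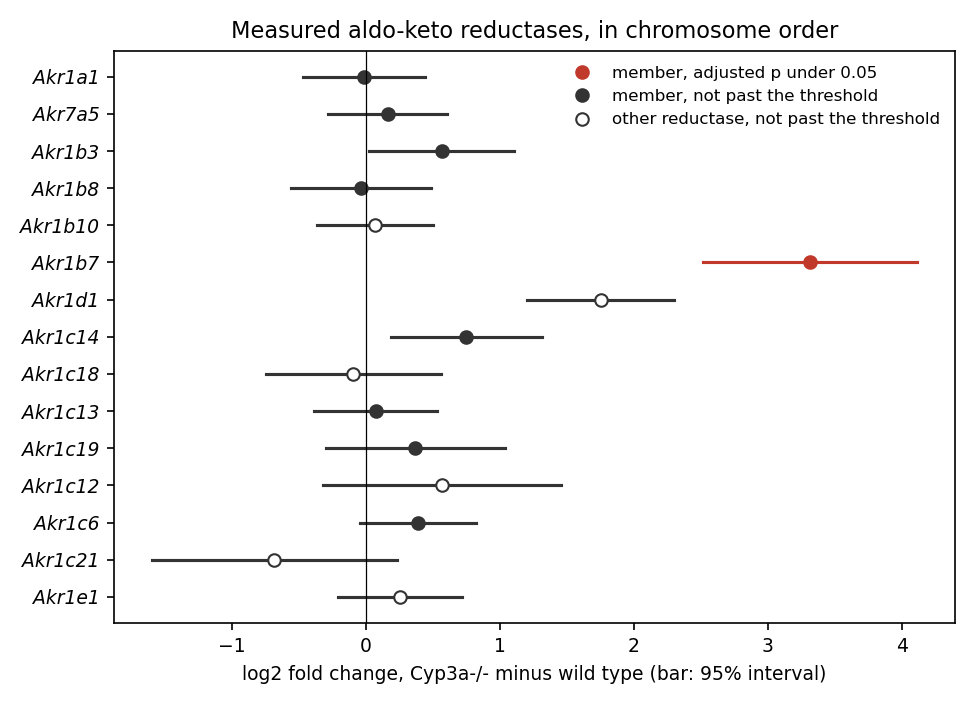
Log2 fold change (x axis, Cyp3a-/- minus wild type) of the 15 measured aldo-keto reductases in chromosome order, with bars for the 95% interval; filled points are members and open points other reductases. Akr1b7, at 3.31, is the gene past the threshold, and Akr1d1, at 1.75, is next in size.

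CAR and PXR targets were counted because Akr1b7 is known as one. Of 9 such genes tested, listed without Akr1b7, 4 were called higher, 0 were called lower and 5 did not pass. All 9 had a log2 fold change above 0, with a median of 1.56. Among all features 0.178% were called higher and 51.4% were above 0, with a median of 0.01. Cyp2b10, the classic CAR target, stood at 1.48 and 1.24 in wild type and 5.91 and 5.48 in Cyp3a-/- (4.33 ± 0.23, adjusted p = 0.0040). Cyp2c55, a P450 that oxidises arachidonic acid, rose by 5.39 ± 0.34 (adjusted p = 0.0086). Slco1a4, an organic anion uptake carrier, rose by 3.15 ± 0.23 (adjusted p = 0.014), and the carboxylesterase Ces2a by 1.76 ± 0.18 (adjusted p = 0.040), though Ces2a missed the threshold in 8 of 16 alternative settings. Among these were the replicate block (adjusted p = 0.062), slide as a random block (0.097), quantile normalization (0.068), no filter on dim probes (0.256), the stricter filter (0.072) and the crossed block (0.069). Cyp2c55 (adjusted p = 0.070) and Slco1a4 (0.117) missed it with no filter on dim probes. Without wild type 1 or without wild type 2, none of these 4 calls held (adjusted p = 0.080 to 0.438), while the log2 fold changes stayed between 1.70 and 5.82. These targets were chosen with earlier results of these data known, so they are no independent support for Akr1b7. Of 8 NRF2 targets, the antioxidant genes that often accompany reductase induction, 0 passed, with 3 above 0 and 5 below 0 and a median of -0.23. Srxn1, the sulfiredoxin, had -0.56 ± 0.25 (adjusted p = 0.549) and Gstm1, a glutathione transferase, 0.54 ± 0.25 (adjusted p = 0.558).

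The pathways in which the reductases work held no called gene. For comparison, 51.4% of all features were above 0, with a median of 0.01. Of 5 polyol and fructose pathway genes, 2 were above 0 and 3 below (median -0.01). Hk1, a hexokinase, had -0.30 ± 0.21 (adjusted p = 0.677). Among 6 glucuronate and ascorbate genes, 5 were above 0 (median 0.15). Ugdh, which makes UDP-glucuronate, had 0.39 ± 0.22 (adjusted p = 0.608), and Ugp2, which makes UDP-glucose, 0.16 ± 0.18 (adjusted p = 0.784). Of 7 NADPH supply genes 3 were above 0 and 4 below (median -0.28), with G6pdx, the entry enzyme of the pentose phosphate pathway, at -0.92 ± 0.19 (adjusted p = 0.246) and H6pd, its counterpart in the endoplasmic reticulum, at -0.31 ± 0.21 (adjusted p = 0.660).

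Enzymes with overlapping substrates gave no call either. Of 12 short-chain carbonyl reductases, 8 were above 0 and 4 below (median 0.03). Dhrs9, a retinol and steroid dehydrogenase, had -0.94 ± 0.27 (adjusted p = 0.352), and Cbr2, a carbonyl reductase, 0.48 ± 0.35 (adjusted p = 0.682). Of 11 alcohol and aldehyde dehydrogenases 10 were above 0 (median 0.46), and 4 had an unadjusted p under 0.05, all higher. Among all features 51.4% were above 0 (median 0.01), and 4.60% were higher at that level. The list was not tested as a group. The mitochondrial Aldh1b1 had 1.29 ± 0.28 (adjusted p = 0.254) and Aldh1a1, the cytosolic retinal dehydrogenase, 0.72 ± 0.20 (adjusted p = 0.338). Of 17 steroid reductases and hydroxysteroid dehydrogenases outside the Akr1c family, 6 were above 0 and 11 below (median -0.16). Hsd17b6, which oxidises androstanediol, had 1.20 ± 0.25 (adjusted p = 0.246), and Rdh16, a retinol dehydrogenase, -0.54 ± 0.26 (adjusted p = 0.581).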

How the data were processed

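Total RNA of 4 livers (2 wild type, 2 Cyp3a-/-) was labelled with Cy3 and hybridised to 1 array each, per the labels. The authors deposited scanner output with intensity values from the software Agilent Feature Extraction, whose version the submitters' processing notes give as 11.5.1.1. Processed intensity is background-subtracted and not scaled between arrays, per the file headers. Columns other than intensity hold 0 or 1 flags, as deposited. A second deposited table holds log2 values whose scale and centring are not stated. Set against the scanner values, it matched the processed intensity scaled to the 75th percentile, with every probe's median set to 0: all 39417 medians were 0 (tolerance 0.002), the lowest column correlation was 1.00 after rounding, and 12 probes were not listed. Its column medians were 0.06 and -0.07 (wild type) and -0.02 and 0.02 (Cyp3a-/-).

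Outlier spots (113 to 148 per array) were left out, spots of a probe were averaged, and the array's 75th percentile over 39429 non-control probes (308 to 352) was subtracted. A probe was kept if a genotype had it well above background on each of its arrays (21508), and the brightest stood for each gene. This gave 17406 features, 13094 with a symbol. Names came from RefSeq accessions (GRCm38.p6), which named 28025 probes and left 11404 unnamed. The array design uses an older build, so only promoter coordinates, which are RefSeq's, are given. Promoter stretches were found for 8 of the 10 members and aligned with Biopython 1.88. Tests used limma 3.58.1 in R 4.3.3 (lmFit, eBayes, 2-sided, with 3.54 prior and 2 residual degrees of freedom) and were checked on simulated data. A gene below background on both arrays of a genotype has a bound: the brighter mean over a floor, averaged over the dimmer genotype's arrays. The floor is the larger of the probe's signal and the dimmest signal that was well above background on that array. Precision is limited by having 2 arrays per genotype.

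The members and gene lists were chosen with earlier results of these data known. The text names all members, each list's called genes and its 2 largest differences, and the 3 genes nearest to Akr1b7 by Euclidean distance, except 1 gene that is not reported here. Values of further reductases and markers were added after they were seen. The alternatives were other background correction, scaling, filters, probe rules, blocks, the deposited table and each array left out. Normexp was planned on mean spot signals and was run on median spot signals instead, the column the scanner files used here give. Replicate numbers are shared between genotypes, but the labels do not say that they pair livers.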

Additional observations from a re-analysis of the deposited data

How the results depend on the processing

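Of 144 values of the 9 members under 16 alternatives, 130 kept direction and side of the threshold, 7 lost the call and 7 changed sign. The features called went from 48 to 659 with median scaling, where the estimated prior degrees of freedom were infinite, to 13 with no filter on dim probes (more features tested) and to 9 when all 4 arrays had to be above background. Without each array in turn the count ran from 7 to 506. The members called went from 1 to 0 with normexp, with quantile normalization, without a filter, with the stricter filter and with slide as a random block, and ran from 0 to 1 over the arrays left out. In these settings Akr1b7 had a log2 fold change of 1.86, 3.34, 3.31, 3.31 and 3.31 (adjusted p = 0.073, 0.057, 0.189, 0.063 and 0.055). Over the arrays left out it ran from 2.86 to 3.76, and the call was lost without wild type 1 or wild type 2. The cause was not tested.

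Akr1a1 changed sign with normexp (0.017) and median scaling (0.013) and ran from -0.13 to 0.091 over the arrays left out. Akr1b8 ran from -0.21 to 0.14 over these. Akr1c13 was -0.069 with quantile normalization and ran from -0.039 to 0.19, and Cbr2 ran from -0.019 to 0.98. None of these genes passed in any setting.

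Same-numbered livers deviated from their genotype means with a correlation of -0.10. With a replicate block 58 features were called, 43 of them among the 48, and Akr1b7 passed (3.31, adjusted p = 0.019). The block changed no member's call. With the numbers crossed, chosen after seeing the data, 56 were called. The correlation behind the slide block was estimated from pooled differences between livers, also chosen after seeing the data, as duplicateCorrelation gave no value. The other 24 named genes gave 380 values, of which 345 kept direction and side, 24 lost the call, 10 gained it and 1 changed sign. Akr1d1 passed with normexp (1.43, adjusted p = 0.043), with median scaling (1.78, adjusted p = 3.1e-06) and without Cyp3a-/- 2 (1.85, adjusted p = 0.029). The wild type signal of Akr1b7 was dim, and the size of its fold is uncertain. Its log2 fold change was 1.86 with normexp against 3.31 as reported.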

Other observations

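Over the 4 livers, 3 genes with a symbol outside the reductases lay nearest to Akr1b7 by the Euclidean distance between log2 levels centred on each gene's mean. Krt31, a hair keratin, was at a distance of 0.39, with levels of -1.25 and -0.74 in wild type and 2.99 and 1.75 in Cyp3a-/-. Like Akr1b7 it was higher in the first Cyp3a-/- liver than in the second, and its log2 fold change of 3.37 ± 0.44 missed the threshold (limma adjusted p = 0.093). It passed in 4 alternative settings: with median scaling (adjusted p = 1.4e-23), with the crossed block (0.026), without Cyp3a-/- 1 (0.016) and without Cyp3a-/- 2 (0.0044). Wif1, a secreted Wnt inhibitor, was at 0.64 and did not clear background in wild type. It was at least 1.89-fold higher in Cyp3a-/-. Mkx, a homeobox transcription factor known from tendon, was at 0.65, below background in wild type and at least 1.94-fold higher in Cyp3a-/-. Wif1 and Mkx were kept through their Cyp3a-/- arrays alone, and their distances rest on wild type readings below background, so only the bounds describe their size. With normexp their log2 fold changes were 0.55 (adjusted p = 0.335) and 0.54 (adjusted p = 0.286). With 4 livers in 2 groups, a short distance mostly reflects a similar difference between the genotypes.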
